A study of Drosophila melanogaster with 63 samples.

Results

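Chromatin sites that carried CP190, Su(Hw) and Mod(mdg4)67.2 but did not belong to the NURF301 sites of the same cells numbered 980, out of 8308 CP190 sites in all. They are called member sites here. Overlapping peaks (1 bp or more) from the 6 mock lists of each antibody were joined into sites, and a site had to hold a peak in at least 4 of the 6 lists. For Mod(mdg4)67.2, with 3 lists, 2 sufficed. A member site was a CP190 site that overlapped a Su(Hw) site and a Mod(mdg4)67.2 site and no NURF301 site. The members were thus chosen by peak presence in mock cells, and their occupancy there is a description and not a finding.

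Chromatin immunoprecipitation followed by sequencing was done in Kc167, a female cell line derived from Drosophila embryos. For each knockdown, dsRNA (5 ug) targeting 1 of the genes Nurf301, Cp190 and su(Hw) was transfected 4 days before the cells were used. After NURF301 knockdown, CP190, Su(Hw) and NURF301 were mapped in 3 libraries each. After CP190 knockdown, CP190 and NURF301 were mapped in 2 libraries each. After Su(Hw) knockdown, CP190, Su(Hw) and NURF301 were mapped in 3 libraries each. Kc-MOD-GFP cells, labelled as transfected, gave 3 libraries with an antibody against GFP. Mock cells of the unmodified line formed 2 series, called mock and mock2, with 3 libraries each for CP190, Su(Hw) and NURF301. Mod(mdg4)67.2 was mapped in mock cells only, in 3 libraries. The labels do not say what distinguished the mock series, and they do not say that replicates were separate cultures, so p-values measure the spread between these libraries, which may be technical. All groups were cultured cells of 1 line or its derivative, and peak lists hold no expression values by which the line could be checked.

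Su(Hw), a zinc finger protein, recognises DNA at the gypsy insulator, a sequence that can block an enhancer from acting on a promoter. CP190 and Mod(mdg4)67.2 carry BTB domains, through which such proteins contact each other, and both are partners of Su(Hw) in the gypsy complex. NURF301 is the largest subunit of NURF, a remodelling complex that slides nucleosomes with the ATPase Iswi.

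Peak lists of the knockdowns were shorter than those of mock cells, and the sources used here give no read depth. CP190 lists held 4091 to 5463 peaks after NURF301 knockdown, 1203 and 1280 after CP190 knockdown, 3688 to 4227 after Su(Hw) knockdown, and 5984 to 10553 in the 6 mock libraries. Su(Hw) lists held 2625 to 3539 peaks after NURF301 knockdown, 74 to 96 after Su(Hw) knockdown, and 3990 to 5358 in mock cells. NURF301 lists held 1, 24 and 253 peaks after NURF301 knockdown, so each knockdown removed most peaks of its own target. Among mock libraries, CP190 of mock2 replicate 1 stood apart with 5984 peaks. NURF301 of mock replicate 3 and of mock2 replicate 2 were short as well, with 5449 and 4608 peaks against 7967 to 8226 in the other mock libraries.

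Those short lists bear on the name of the class. NURF301 peaks were present at 32.0%, 19.6% and 0% of member sites in the 3 mock libraries and at 23.3%, 0.102% and 5.00% in the 3 mock2 libraries. The short lists held 0 and 1 member sites, so that a presence in 4 of 6 lists amounted to presence in nearly all of the longer ones. Of the 980 member sites, 583 had a NURF301 peak in no mock list, 155 in 1, 97 in 2 and 145 in 3. The label of sites without NURF301 thus held for 583 sites in every mock list, and 397 had a NURF301 peak in 1 to 3 lists. Where present, such peaks were weak. Their fold enrichment (the authors' value for the peak) had a median percentile of 11.9 to 17.0 within the 4 longer lists, against 23.0 to 33.0 for NURF301 peaks at the sites with all 4 proteins.

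On the other side of the rule stood 970 CP190 sites with all 4 proteins, which are used here for comparison together with 1489 CP190 and Su(Hw) sites that overlapped neither a Mod(mdg4)67.2 site nor a NURF301 site. This split is a threshold as well. Of those 1489 sites, 465 (31.2%) had a Mod(mdg4)67.2 peak in 1 of 3 mock lists, and 1445 had a NURF301 peak in none. Among member sites, 311 (31.7%) just met the rule for Mod(mdg4)67.2, with a peak in 2 of 3 lists. All but 1 member site lay well inside the rule for CP190: 1 had a CP190 peak in 4 of 6 mock lists, and no site with a CP190 peak in 3 of 6 was left just outside.

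Member sites lay away from gene ends. A gene boundary was defined as a position within 500 bp of the annotated start or end of any protein-coding gene, because the annotation used holds no strand. By this measure 21.1% of member sites were at a gene boundary, 52.3% were inside a gene and 26.5% were between genes. Boundaries held 48.8% of the sites with all 4 proteins, 12.7% of the CP190 and Su(Hw) sites without the other proteins, and 59.2% of all CP190 sites. Member sites were 718 bp wide at the median, against 967.5 bp for sites with all 4 proteins and 513 bp for CP190 and Su(Hw) sites without the other proteins. The nearest NURF301 site was 10231 bp away at the median, and 50 member sites had one within 1 kb. They were spread over the chromosomes, with 201 on 2L, 160 on 2R, 202 on 3L, 253 on 3R, 161 on X and 3 on the small chromosome 4.

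**Figure D1:**
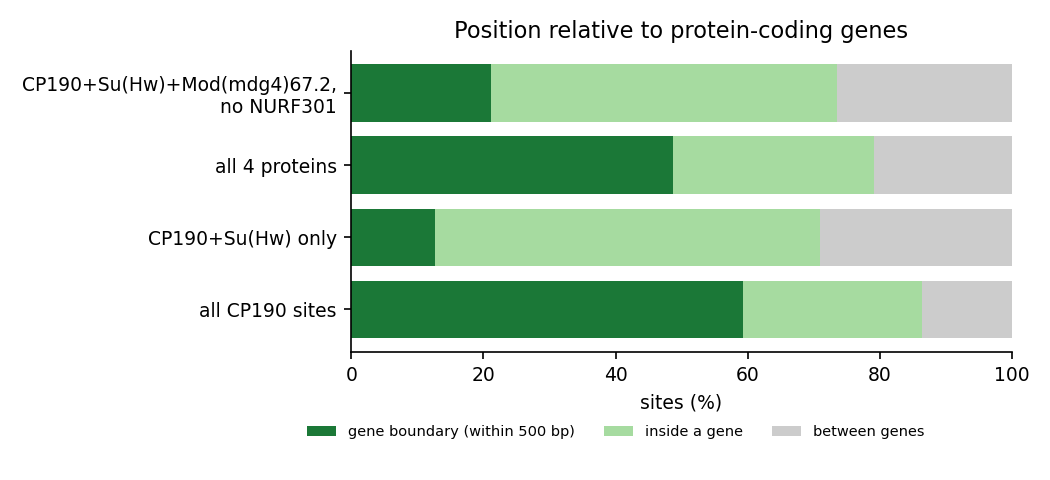
Share of sites (x axis, percent) at a gene boundary, inside a gene and between genes, for the 980 member sites, the 970 sites with all 4 proteins, the 1489 CP190 and Su(Hw) sites without the other proteins and all 8308 CP190 sites. The boundary segment is 21.1% of member sites and 48.8% of sites with all 4 proteins.

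The proteins sat on top of each other. The summit of the Su(Hw) peak lay 5.5 bp from the CP190 summit at the median of member sites, and 97.2% of the sites had both within 50 bp. The Mod(mdg4)67.2 summit lay 8.5 bp from the CP190 summit. At the 396 member sites where the distance of a NURF301 summit could be measured, its median was 11.5 bp. In strength, CP190 at member sites had a median percentile of 65.4 within the mock lists, against 65.1 at sites with all 4 proteins and 37.6 at CP190 and Su(Hw) sites without the other proteins. Su(Hw) had a median percentile of 62.9 at member sites and 53.4 at sites with all 4 proteins. Mod(mdg4)67.2 differed most between those classes, with a median percentile of 37.9 at member sites and 69.3 at sites with all 4 proteins. These percentiles come from the lists that chose the sites and were not tested.

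An independent view of Mod(mdg4) came from the cells with the GFP fusion, which played no part in the choice of sites. GFP peaks covered 78.0%, 96.0% and 21.2% of member sites in the 3 libraries, and 95.8%, 99.4% and 72.3% of the sites with all 4 proteins. The corresponding shares at CP190 and Su(Hw) sites without the other proteins were 16.4%, 36.9% and 0.201%. In each library member sites lay between the other classes, and the library with the lowest share, replicate 3, had the shortest GFP list, with 949 peaks. GFP was present in all 3 lists at 208 member sites (21.2%, against 11.0% of all CP190 sites) and in 2 at 553 (56.4%, against 12.7%). It was present in 1 at 183 (18.7%, against 8.92%) and in none at 36 (3.67%, against 67.4%). The GFP lists were cut off more loosely. Their smallest -log10 q (the authors' value) was 1.34 to 1.68, against 8.13 to 9.52 in the Mod(mdg4)67.2 lists.

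CP190 peaks disappeared from many member sites after NURF301 knockdown. They were present at 54.1%, 18.4% and 35.3% of member sites in the 3 NURF301 knockdown libraries. A mock library helped to choose the sites, so each was measured at members rebuilt from the other 5 lists; CP190 was then present at 100%, 99.8% and 100% in the mock libraries and at 96.2%, 100% and 100% in mock2. The groups did not overlap. The other 5 lists are mock lists too, so the choice of sites still favoured mock cells. Without this rebuilding the mock mean was 99.3% as well. The rule thus set a share near 100% in mock cells, and another group could hardly lie higher. P-values of peak presence at member sites, here and below, do not separate a loss from that choice. The mean was 35.9% ± 17.9 (SD, n = 3) after NURF301 knockdown and 99.3% ± 1.53 (SD, n = 6) in mock cells, a difference of -63.4 percentage points (exact two-sided permutation test over libraries, p = 0.0238, the smallest p the 84 splits allow; 0.0476 after Benjamini-Hochberg adjustment over 8 comparisons). Against the mock series with matching titles alone the difference was -64.0 points, where 3 against 3 libraries cannot go below p = 0.1 in the exact test. Without CP190 of mock2 replicate 1 it was -64.0 points as well. Leaving out any 1 library of either group gave -54.6 to -72.5 points. The smallest p then possible is 0.0357 or 0.0714, so that no comparison called here kept an adjusted p under 0.05 without a library it used.

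**Figure D2:**
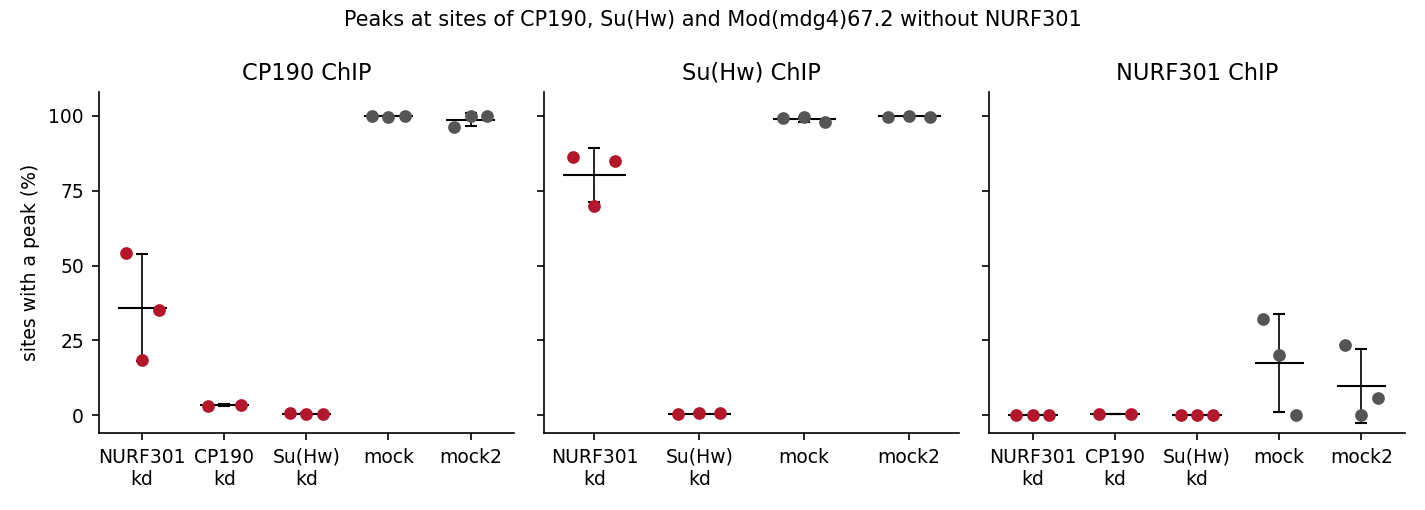
Percent of member sites with a peak (y axis) in each library, by antibody (panels) and treatment (x axis; kd, knockdown), with points for libraries, a long bar for the mean and whiskers for the SD; mock libraries are measured at members rebuilt from the other mock lists. CP190 is at 18.4% to 54.1% after NURF301 knockdown and at 96.2% or more in mock cells.

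Part of this difference moved with the length of the lists. When each mock CP190 list was shortened to its strongest peaks, as many as the mean number in the NURF301 knockdown lists, CP190 was present at 35.9% of member sites after NURF301 knockdown and at 76.6% in mock cells, a difference of -40.7 points (exact permutation test, p = 0.0238, adjusted p = 0.0635). Groups still did not overlap, but the adjusted p missed 0.05. When a site had to hold a peak in every mock list of its antibody, which gave 1262 member sites because NURF301 absence is then easier to meet, CP190 was present at 62.3% after NURF301 knockdown and at 99.9% in mock cells, a difference of -37.6 points (exact permutation test, adjusted p = 0.0318).

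Site by site, 428 member sites (43.7%) had no CP190 peak in any of the 3 NURF301 knockdown libraries, while 35.6% of all CP190 sites had none. At the other end 150 member sites (15.3%) had a CP190 peak in every NURF301 knockdown library, against 40.6% of all CP190 sites. The member sites with a peak in 1 library were largely among those of a longer list. Of the 180 member sites with a CP190 peak in replicate 2, 97.2% also had one in replicate 1, and of the 346 in replicate 3, 94.2% did.

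Su(Hw) was kept at most member sites under the same treatment. Its peaks were present at 86.2%, 69.9% and 84.9% of member sites after NURF301 knockdown. In mock cells the shares were 99.2%, 99.6% and 97.9% in the mock libraries and 99.8%, 99.9% and 99.8% in mock2. All 3 knockdown libraries lay below all 6 mock libraries, with means of 80.3% ± 9.07 (SD, n = 3) and 99.4% ± 0.774 (SD, n = 6), a difference of -19.0 points (exact permutation test, p = 0.0238, adjusted p = 0.0476). With mock lists of equal length the difference was -11.1 points (exact permutation test, adjusted p = 0.0635), and with sites in every mock list -11.0 points (exact permutation test, adjusted p = 0.0318). A Su(Hw) peak was found in every NURF301 knockdown library at 679 member sites (69.3%; 54.8% of all Su(Hw) sites), and in none at 117 (11.9%; 21.5% of all Su(Hw) sites).

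Set side by side, the losses were nested. Every one of the 552 member sites with CP190 in at least 1 NURF301 knockdown library also had Su(Hw) in at least 1. The 150 with CP190 in all 3 libraries all had Su(Hw) in all 3. The reverse did not hold, since 178 member sites (18.2%) had a Su(Hw) peak in every NURF301 knockdown library and a CP190 peak in none. The same held for 2.06% of the sites with all 4 proteins and for 39.7% of the CP190 and Su(Hw) sites without the other proteins. Without replicate 1 of the NURF301 knockdown the share of member sites was 33.3%, and without replicate 2 it was 27.4%. With fewer libraries both conditions are easier to meet, so this share could not fall. Su(Hw) and CP190 were both missing from all NURF301 knockdown libraries at 117 member sites. Thus all 117 sites without Su(Hw) were also without CP190. At the CP190 and Su(Hw) sites without the other proteins this was so for 313 of 314 sites, so the order was not particular to member sites. Among the sites with all 4 proteins, 21 had CP190 in all 3 libraries and Su(Hw) in none.

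**Figure D3:**
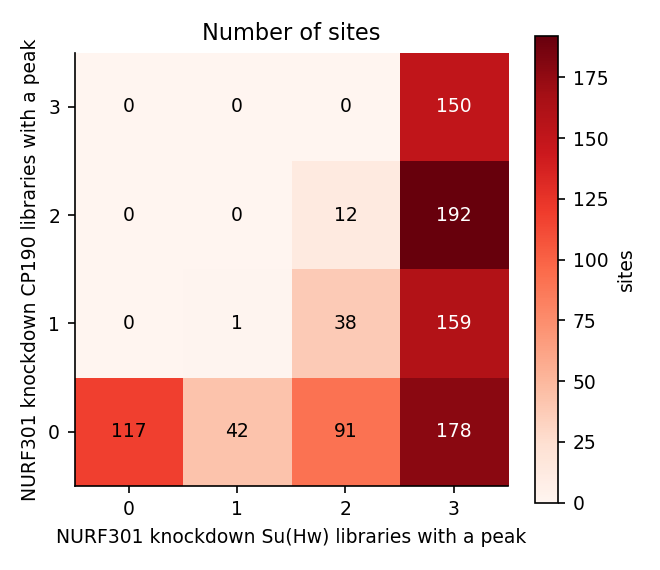
Number of member sites by the count of NURF301 knockdown libraries with a Su(Hw) peak (x axis, 0 to 3) and with a CP190 peak (y axis, 0 to 3); color and printed numbers give sites. The upper left is empty: 178 sites kept Su(Hw) in 3 libraries with CP190 in 0, and 0 sites had CP190 with Su(Hw) in 0.

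Member sites lost CP190 more often than the sites with all 4 proteins. After NURF301 knockdown, CP190 was present at 54.1%, 18.4% and 35.3% of member sites and at 94.6%, 72.8% and 87.1% of the sites with all 4 proteins. Member sites were lower by 40.6 to 54.4 points in the knockdown libraries and by 0 to 3.57 points in mock cells. The mean difference between the classes was -48.9 points after NURF301 knockdown and -0.629 points in mock cells (exact permutation test of that difference over 3 and 6 libraries, p = 0.0238, adjusted over 10 comparisons 0.0476). The mock values sit at the upper end of the scale, where little difference can show. When sites with all 4 proteins were weighted to the CP190 strength of the member sites, the change was -48.8 points, against -48.3 without weighting. The median CP190 percentiles were already 65.4 at member sites and 65.1 at sites with all 4 proteins. This weighting could thus hardly move the value. Traits that differed more were not weighted. In the same order these were median width (718 and 967.5 bp), boundary share (21.1% and 48.8%) and median Mod(mdg4) percentile (37.9 and 69.3). The part of these traits in the change was not tested. With mock lists of equal length the change was -31.3 points (exact permutation test, adjusted p = 0.0595), and with sites in every mock list -29.9 points (exact permutation test, adjusted p = 0.0476). For Su(Hw) the classes differed by -9.04 points after NURF301 knockdown and by -0.234 points in mock cells (exact permutation test, p = 0.0238, adjusted p = 0.0476). This change depended on the site rule: it was 3.75 points with sites in every mock list (exact permutation test, adjusted p = 0.69) and -4.57 points when peaks with -log10 q below 20 were dropped (exact permutation test, adjusted p = 0.238).

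Against the CP190 and Su(Hw) sites without the other proteins, the position of member sites depended on the mock libraries. After NURF301 knockdown those sites had CP190 at 12.4%, 1.95% and 3.83%, below the member sites in each library, by 29.9 points on average. In mock cells they were also below, by 19.4 points on average. CP190 of mock2 replicate 1 was present at 23.7% of them, and at 72.1% to 98.9% in the other mock libraries. The change between knockdown and mock was 10.5 points (exact permutation test, p = 0.571), and 21.1 points without that library. With mock lists of equal length the sign turned, to -32.8 points. No call could be made for CP190 after NURF301 knockdown in this pair of classes.

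**Figure D4:**
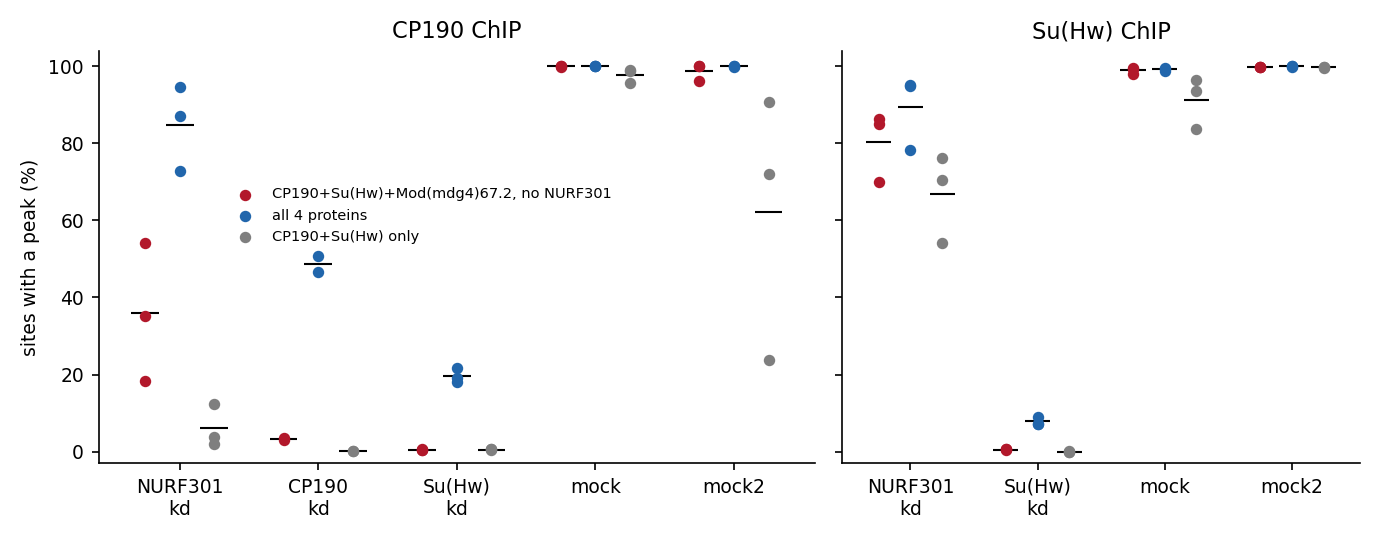
Percent of sites with a CP190 peak (left) or Su(Hw) peak (right) in each library (points) with group means (bars), for the member sites, the sites with all 4 proteins and the CP190 and Su(Hw) sites without the other proteins; x axis, treatment (kd, knockdown). After NURF301 knockdown CP190 is at 18.4% to 54.1% of member sites and 72.8% to 94.6% of sites with all 4 proteins.

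Among the member sites themselves, the loss of CP190 was graded by how often mock cells gave a NURF301 peak there. At the 583 member sites with no NURF301 peak in any mock list, CP190 was present at 40.1%, 9.61% and 21.8% in the 3 NURF301 knockdown libraries. At the 155 sites with NURF301 in 1 list the shares were 61.9%, 22.6% and 40.0%. With 2 lists (97 sites) they were 79.4%, 35.1% and 61.9%, and with 3 lists (145 sites) 84.8%, 37.9% and 66.9%. The shares rise with the number of lists in each of the 3 libraries. A rise with the number of lists was also seen for GFP, in cells without a knockdown label, so it was not seen for CP190 alone. In GFP replicate 2 all shares were 93.8% or more, and the share fell between 1 list and 2. The part of the knockdown in the order of the CP190 shares was not tested. At 0, 1, 2 and 3 lists GFP was present at 70.5%, 85.2%, 88.7% and 93.1% of sites in replicate 1. The shares were 93.8%, 99.4%, 97.9% and 100% in replicate 2, and 11.0%, 27.1%, 39.2% and 44.1% in replicate 3. The CP190 shares run on into the sites with all 4 proteins, where 439 sites with 4 lists had 92.9%, 62.0% and 83.1%, and 326 sites with 6 lists had 96.3%, 84.0% and 92.0%. For CP190 in replicate 2 the step across the rule, between 3 and 4 lists, was the largest, with 37.9% and 62.0%. The other replicates did not share this. In replicate 1 the largest step was from no list to 1 (40.1% and 61.9%), and in replicate 3 from 1 list to 2 (40.0% and 61.9%).

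Strength of CP190 moved with this grouping, since its median percentile was 61.6 at member sites with no NURF301 list and 69.9 at those with 1 to 3. When member sites were split into 3 groups of equal size by CP190 strength, the order was the same in each. In the weakest group CP190 was present after NURF301 knockdown at 18.6% of sites with no NURF301 list and 59.4% of sites with 1 to 3, as means of the 3 libraries. The values were 30.5% and 57.3% in the middle group, and 23.4% and 48.4% in the strongest. Other traits of the sites were not split in this way, and the cause of the order was not tested. Su(Hw) followed the same order at member sites, with means of 73.0% at sites with no NURF301 list and 91.2% at sites with 1 to 3. At the sites with all 4 proteins it did not, with Su(Hw) at 97.9%, 87.2% and 97.9% of sites with 4 lists and 90.2%, 62.6% and 91.1% of sites with 6.

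**Figure D5:**
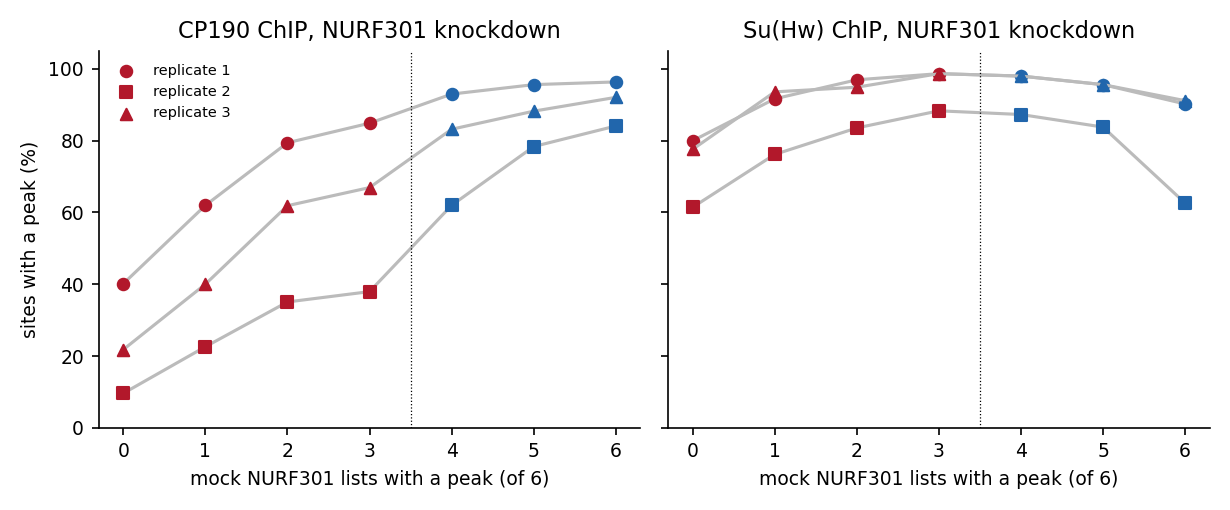
Percent of sites with a CP190 peak (left) or a Su(Hw) peak (right) in each NURF301 knockdown library (y axis; marker shape, replicate) by the number of mock NURF301 lists with a peak (x axis, 0 to 6); red, member sites, blue, sites with all 4 proteins, dotted line, the rule. For CP190 replicate 1 the share goes up with each step, through 40.1% at 0 lists, 84.8% at 3 and 96.3% at 6.

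The sites that held CP190 in every NURF301 knockdown library had other traits. Of those 150 sites 75.3% had a NURF301 peak in 1 to 3 mock lists, against 20.8% of the 428 sites with CP190 in no NURF301 knockdown library. A gene boundary was the position of 36.0% of the first and 16.1% of the second. Their median widths were 847.5 bp and 638 bp. Mod(mdg4)67.2 was present in all 3 lists at 86.0% and 56.8%, and GFP in all 3 lists at 33.3% and 15.2%. CP190 strength in mock cells differed little between them, with median percentiles of 67.3 and 61.8, and Su(Hw) had 61.9 and 60.2. By position, CP190 was present after NURF301 knockdown at 45.4% ± 19.3 of boundary sites, 33.8% ± 17.5 of sites inside genes and 32.6% ± 17.5 of sites between genes (SD, n = 3 libraries). Boundary sites had the highest share in each library, but the libraries differed from each other by more than the positions did. The 3 member sites on chromosome 4 had neither CP190 nor Su(Hw) in any NURF301 knockdown library.

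Knockdown of CP190 left CP190 at few member sites. Its peaks were present at 3.06% and 3.57% of member sites after CP190 knockdown, against the 96.2% to 100% of mock cells given above. The difference was -96.0 points (exact permutation test, p = 0.0714, the smallest p that 2 against 6 libraries allow; adjusted p = 0.109). With mock lists shortened to the same number of peaks, CP190 was present at 3.32% of member sites after CP190 knockdown and at 7.49% in mock cells, a difference of -4.18 points. At the sites with all 4 proteins CP190 was present at 46.5% and 50.7% after CP190 knockdown. The classes differed by -45.3 points there and by -0.629 points in mock cells (exact permutation test, p = 0.0714, adjusted p = 0.102). With mock lists of equal length they differed by -45.3 points after CP190 knockdown and by -27.6 points in mock cells (exact permutation test of the change, p = 0.143).

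CP190 was absent from both CP190 knockdown libraries at 937 member sites (95.6%), and 84.1% of all CP190 sites had none. It was present in both at 22 member sites (2.24%; 13.1% of all CP190 sites). Of those 22, 14 lay at a gene boundary and 17 had a NURF301 peak in 1 to 3 mock lists. All 22 had CP190 in at least 1 NURF301 knockdown library. Examples, chosen after their values were seen, are the sites at Kr-h2 (2L, 6073661 to 6074631), at kst, which encodes a heavy spectrin (3L, 3349035 to 3349766), and at Rab32, a small GTPase of membrane traffic (2R, 9178813 to 9179909). All 3 kept CP190 in every NURF301 knockdown library, and none had it in a Su(Hw) knockdown library.

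Knockdown of Su(Hw) emptied the member sites of CP190 nearly completely. CP190 was present at 0.714%, 0.408% and 0.408% of them, that is at 7, 4 and 4 sites. The mean was 0.510% ± 0.177 (SD, n = 3) after Su(Hw) knockdown and 99.3% ± 1.53 (SD, n = 6) in mock cells, a difference of -98.8 points (exact permutation test, p = 0.0238, adjusted p = 0.0476). Mock lists of equal length had CP190 at 64.9% of member sites, a difference of -64.4 points (exact permutation test, adjusted p = 0.0635). Against the mock2 series alone, whose titles match, the difference was -98.2 points. The same lists held 3688 to 4227 CP190 peaks in all.

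No CP190 peak was found in any Su(Hw) knockdown library at 972 member sites (99.2%), while 48.7% of all CP190 sites had none. A peak in every Su(Hw) knockdown library was found at 2 member sites, against 39.4% of all CP190 sites. At the sites with all 4 proteins CP190 was present at 21.8%, 18.0% and 19.2%. The classes differed by -19.1 points after Su(Hw) knockdown and by -0.629 points in mock cells (exact permutation test, p = 0.0238, adjusted p = 0.0476). With mock lists of equal length this change between the classes was 6.23 points, so its direction turned with list length, and with sites in every mock list it was -35.9 points. At CP190 and Su(Hw) sites without the other proteins CP190 was present at 0.604%, 0.604% and 0.336%, as low as at member sites. Member sites minus these gave -0.00468 points after Su(Hw) knockdown and 19.4 points in mock cells (exact permutation test, p = 0.0238, adjusted p = 0.0476). That change of -19.4 points came from the mock side, where the difference ran from 1.05 to 72.5 points between libraries.

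Su(Hw) itself was present at 0.306%, 0.612% and 0.612% of member sites after Su(Hw) knockdown, that is at 3, 6 and 6 sites, and at 97.9% to 99.9% in mock cells. The difference was -98.8 points (exact permutation test, p = 0.0238, adjusted p = 0.0476). Lists of 74 to 96 peaks could not cover more than a small share of 980 sites, and mock lists of that length had Su(Hw) at 1.60% of them. No Su(Hw) peak was found in any Su(Hw) knockdown library at 974 member sites, where 97.5% of all Su(Hw) sites had none. A peak in every one was found at 3 member sites (0.306%), against 1.08% of all Su(Hw) sites. Among the sites with all 4 proteins, 70, 70 and 88 had Su(Hw) in those libraries, or 7.22%, 7.22% and 9.07%.

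NURF301 was low at member sites by the rule, and few or no NURF301 peaks were called there after any knockdown. NURF301 peaks were present at 0% of member sites in all 3 NURF301 knockdown libraries, at 0.306% in both CP190 knockdown libraries and at 0% in all 3 Su(Hw) knockdown libraries. In mock cells the shares at rebuilt members were 32.3%, 20.1% and 0% in the mock libraries and 23.5%, 0.120% and 5.61% in mock2. The rule used NURF301 peaks of mock cells, so these shares are a description and no call is drawn from them. The NURF301 lists of 1, 24 and 253 peaks after NURF301 knockdown were also short, and mock lists of equal length had NURF301 at 0% of member sites as well. NURF301 lists held 1819, 1965 and 2027 peaks after Su(Hw) knockdown, and 4403 and 4574 after CP190 knockdown. Mock lists cut to the mean of those lengths had NURF301 at 0% and 0.0540% of member sites. Lists this short could hardly show an added peak. A count of 0 in 980 sites shows that no peak was called there, not that the protein was absent. Of the 2895 CP190 sites outside the NURF301 set, 0% had a NURF301 peak in any NURF301 knockdown library, 0.173% in any CP190 knockdown library and 0.0345% in any Su(Hw) knockdown library. The 4 member sites with NURF301 after CP190 knockdown lay at dysc, at CG15221 with the inaF genes, at Mur2B and at inc, and all of them had NURF301 in 2 or 3 mock lists.

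Across the knockdowns, 422 member sites (43.1%) had CP190 in no knockdown library of any kind, while 28% of all CP190 sites had none. CP190 in every knockdown library was found at 0 member sites, against 8.5% of all CP190 sites. A CP190 peak in all 3 NURF301 knockdown libraries together with none after Su(Hw) knockdown was found at 148 member sites (15.1%), against 8.15% of all CP190 sites and 50.8% of the sites with all 4 proteins. The opposite was found at 2 member sites (0.204%), against 3.9% of all CP190 sites. These comparisons share their mock libraries.

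The member sites with the strongest CP190 in mock cells, by mean percentile within the lists, show this range. The highest, percentile 94.4, lay 18412 bp from dpr21, a gene of the Dpr family of neuronal cell surface proteins (2R, 3209423 to 3209998). It had all 3 proteins in every mock list with CP190 in no knockdown library and Su(Hw) in no NURF301 or Su(Hw) knockdown library. Within the 6 CP190 mock lists its percentiles were 99.6, 90.3, 99.9, 81.4, 96.2 and 99.1. The site inside DIP-epsilon, whose product binds Dpr proteins (2L, 6394163 to 6394953), likewise had CP190 in no knockdown library and kept Su(Hw) in 1 NURF301 knockdown library. The site at ng4 (X, 3244107 to 3244760) and the site inside CG14082 (3L, 19133509 to 19134130) had CP190 in none and Su(Hw) in 2 of 3 NURF301 knockdown libraries. At Sytbeta, a synaptotagmin gene (3L, 15056854 to 15057486), CP190 was in no knockdown library while Su(Hw) was in all 3 NURF301 knockdown libraries. The sites at osy and Cln3 had CP190 in no knockdown library and Su(Hw) in no NURF301 or Su(Hw) knockdown library. The site inside px had CP190 in no knockdown library and Su(Hw) in 2 NURF301 knockdown libraries.

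Other strong sites kept CP190 after NURF301 knockdown. Inside dnc, the cAMP phosphodiesterase gene dunce (X, 3177109 to 3178474), CP190 was present in all 3 NURF301 knockdown libraries at percentiles 53.6, 62.1 and 42.7 of those lists. Its percentiles in the 6 mock lists were 66.5 to 99.0, but ranks from lists of different length show no change. The site 6341 bp from oaf (2L, 2505187 to 2506113) kept CP190 in all 3 libraries as well, with percentiles of 52.1, 11.7 and 95.0 within those lists. Sites at CG15649, CG4238, to with CG11854, CG1998, CG7408 and CG42658 with CG17237 behaved likewise. The strong sites at tyn and olf413 had CP190 in 2 NURF301 knockdown libraries and Su(Hw) in 3, and the site at CG13297 had them in 1 and 2. All of these had CP190 in no Su(Hw) knockdown library.

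The 2 sites of the opposite kind held CP190 in all 3 Su(Hw) knockdown libraries and in no NURF301 knockdown library. They lay 1060 bp from CG15152 (2L, 18116280 to 18118825) and inside CG1632 (X, 8265156 to 8266222). The first was 2546 bp wide and had Su(Hw) in 5 of 6 mock lists, at percentiles of 1.71 to 66.0. Its CP190 percentiles within the Su(Hw) knockdown lists were 18.8, 69.4 and 27.0, and those at CG1632 were 35.6, 46.1 and 16.1. Both had NURF301 in 2 mock lists and GFP in 3.

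CP190 was seen in at least 1 Su(Hw) knockdown library at 8 member sites, and Su(Hw) at 6. Both proteins were seen at 4 sites, those at GluRIA, a glutamate receptor gene, at CG10051, at Mur2B and at inc, an adaptor of the Cul3 ubiquitin ligase known for its role in fly sleep. The sites of Mur2B (X, 1523206 to 1523941) and inc (X, 1516947 to 1518317) are neighbours. They alone among member sites had CP190 in at least 1 library of every knockdown, and NURF301 in both CP190 knockdown libraries. Their CP190 strength in mock cells was low, with mean percentiles of 31.4 and 27.3. Of the other sites, hwt and blanks kept CP190 only, and dysc and Dys, the dystrophin gene, kept Su(Hw) only.

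Large genes held several member sites. Ten-m, a teneurin cell surface protein gene, held 11, of which 6 had CP190 in no NURF301 knockdown library and 0 had it in all 3. The RNA-binding protein gene bru3 held 10, with 6 and 2 of these kinds, and Dys held 9, with 2 and 1. Those genes span 114820, 281494 and 136204 bp, and the counts were not adjusted for length.

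Of 13922 protein-coding genes 586 (4.21%) had a member site within them or at their ends. None of the 3 genes of the gypsy proteins, of the 12 matched genes of other insulator proteins, of the 4 NURF subunit genes or of the 11 Hox complex genes was among them. Of 14 genes at loci known from insulator work, ct was the only one. This homeobox gene, at which gypsy insertions separate a distant wing enhancer from its promoter, held a site at X, 7640426 to 7641395. It had NURF301 in 3 mock lists, kept CP190 in 2 and Su(Hw) in 3 NURF301 knockdown libraries, and had neither in a Su(Hw) knockdown library. Of 23 neuronal genes 6 had member sites (26.1%), namely Syt1, brp, Gad1, pros, ChAT and fne, and 6 had sites with all 4 proteins. The neuronal genes have a median length of 32941 bp against 2163 bp for all genes, and this was not adjusted for. CP190 was in every NURF301 knockdown library at the sites of ChAT and fne, an RNA-binding protein gene of the Elav family, and in none at Syt1, Gad1 and 1 of 2 sites in pros. At all of these sites Su(Hw) was in every NURF301 knockdown library. Of 16 muscle genes 2 had a member site, Mef2, a muscle transcription factor gene, and Tm1, a tropomyosin gene. The site in Mef2 had neither protein in any NURF301 knockdown library, and that in Tm1 kept CP190 in 1 and Su(Hw) in 3. Of 18 hemocyte genes only Pxn, which encodes the matrix enzyme peroxidasin, had member sites. Its 3 sites held CP190 in 1, 1 and 0 and Su(Hw) in 3 NURF301 knockdown libraries each.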

How the data were processed

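The authors' ChIP-seq peak lists of 46 libraries in 16 groups were used, 1 list per library. The 17 input samples enter no comparison. Per the submitters' processing notes the tools were MACS2 2.2.7.1 for peaks, and Bowtie2 2.4.2, Picard 2.25.2 and SAMtools 1.12; settings, the control library and the genome build are not given in the sources used here. Each deposited list gives a score, a ratio (the fold enrichment at the summit), and the -log10 p and -log10 q of each peak. These are the authors' values; the fold ranked peaks within a list, and -log10 q served in alternative settings. Chromosome names match Release 6, and gene names came from the RefSeq annotation of Release 6 plus ISO1 MT.

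Peaks on the 6 main chromosomes were merged with Python 3.11.15, numpy 2.4.6 and pandas 2.3.3, and drawn with matplotlib 3.10.9. Coordinates count from 1. Percentiles rank fold enrichment within a list. Recovery is the percent of sites with a peak in a library, compared by an exact two-sided permutation test over libraries (2 times the smaller tail), adjusted by Benjamini-Hochberg over 8 recovery and 10 class comparisons. The 6 mock libraries of an antibody were pooled, and each was measured at sites rebuilt from the other 5 lists (3 or more with a peak). The procedure was tested on simulated lists. Read depth is unknown, so list length stands for it.

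The members, the gene lists and the tests were chosen with earlier results of these data known. The genes named by a set rule are those at the 10 member sites with the highest mean CP190 percentile, at up to 8 highest sites of 4 knockdown patterns, and on the gene lists. Others were named after their values were seen. These are examples of sites that kept CP190 after CP190 knockdown, and the sites with NURF301 after it. They also include the sites with CP190 or Su(Hw) after Su(Hw) knockdown, and the genes with the most member sites. A site takes the name of the protein-coding gene it lies in or nearest to. Alternatives were stricter site rules, a -log10 q of at least 20, other overlap rules, shortened mock lists, the matching mock series, a replicate block, and leaving out each library.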

Additional observations from a re-analysis of the deposited data

Results flagged for a closer look

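Within the 6 mock libraries of an antibody, 4 of 7 sets of values had a library far from the others by Dixon's criterion; chance flags about 1 set in 20, and 3 of these come from the same library. CP190 of mock2 replicate 1 was present at 96.2% of the member sites, against 99.8% to 100% in the other mock libraries. It was present at 99.8% of the sites with all 4 proteins, against 100% in each of the others, and at 23.7% of the CP190 and Su(Hw) sites without the other proteins, against 72.1% to 98.9%. Its list was the shortest of the CP190 mock lists, with 5984 peaks. Su(Hw) of mock replicate 3 was present at 97.9% of the member sites, against 99.2% to 99.9% in the others, and its list was the shortest of the Su(Hw) mock lists, with 3990 peaks. The part of list length in these values was not tested.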

How the results depend on the processing

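Values are differences in percentage points, knockdown minus mock at the member sites, or, for classes, the change between knockdown and mock of member sites minus the other class; "all-4" and "pair" sites stand for sites with all 4 proteins and for CP190 and Su(Hw) sites without the other proteins. The alternatives on NURF301 absence, and the 2 counts named last, were added after seeing the data. The cause of a change was not tested unless the setting itself shows it.

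In the exact permutation test p = 0.0238 is the smallest that 3 against 6 libraries allow. Its adjusted value was 0.0476 in the main setting and changes with the number of comparisons that reach this p. With the matching mock series alone, where p is at least 0.1, the values were -64.0 (CP190) and -18.5 (Su(Hw)) after NURF301 knockdown and -98.2 and -99.3 after Su(Hw) knockdown; against all-4 sites -48.9, -8.71, -18.0 and -7.19. In the same order against pair sites, only the change of CP190 after Su(Hw) knockdown had been called, and it was -36.5; CP190 after CP190 knockdown turned to 1.04 and Su(Hw) after Su(Hw) knockdown to 0.412. A replicate block by number gave the same for the values listed here except 0.476 for CP190 after CP190 knockdown, with p of at least 0.25. NURF301 after CP190 knockdown, with 2 pairs only, was -25.9 in the block and -17.2 with the matching series. Deviations of same-numbered libraries over all sites of the antibody correlated at -0.119 to 0.12 in 22 pairs, over 0.1 in 2; where nearly all or no sites had a peak, little could show, and the numbers were not taken to pair libraries.

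With mock lists shortened to the knockdown's number of peaks, values at member sites after NURF301 knockdown were -40.7 for CP190 and -11.1 for Su(Hw), and after Su(Hw) knockdown -64.4 and -1.09. Against all-4 sites they were -31.3 and -14.0, then 6.23 (turned) and -4.15. Against pair sites CP190 was -32.8 after NURF301 knockdown (turned) and -57.1 after Su(Hw) knockdown, and Su(Hw) -10.3 after NURF301 knockdown (turned). NURF301 after CP190 knockdown turned to 0.252.

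Sites in every mock list (1262 members, since NURF301 absence is then easier to meet) gave -37.6 (CP190) and -11.0 (Su(Hw)) after NURF301 knockdown, and for CP190 against all-4 sites -29.9 after NURF301 and -35.9 after Su(Hw) knockdown, all still called. This rule holds the mean mock shares of member sites at 99.9% for both proteins, so these calls do not separate a loss from the choice of sites. Under the same rule Su(Hw) after NURF301 knockdown was 3.75 against all-4 sites (turned) and 8.37 against pair sites (now called). Against pair sites CP190 after CP190 knockdown was 11.3 (turned), CP190 after Su(Hw) knockdown -7.39 (no longer called) and Su(Hw) after Su(Hw) knockdown 2.80 (turned). NURF301, on which no call is drawn because the rule used it, was -43.9 after NURF301 knockdown and -43.9 after Su(Hw) knockdown. A -log10 q of at least 20 left -40.1 and -4.57 after NURF301 knockdown and -15.3 and -5.45 after Su(Hw) knockdown against all-4 sites, and -19.3 for CP190 after Su(Hw) knockdown against pair sites, all uncalled. Summits extended by 150 bp left -46.4, -8.92, -13.9, -6.77 and -18.6 for the same, uncalled, and NURF301 was -13.6 after both NURF301 and Su(Hw) knockdown. Counting a peak only with its summit inside the site gave Su(Hw) after Su(Hw) knockdown -4.01 against pair sites (now called). With members limited to no NURF301 peak in any mock list, CP190 after NURF301 knockdown against pair sites turned to -1.24.

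Leaving out 1 library changed no direction. Values ran from -72.5 to -54.6 (CP190) and -22.0 to -13.8 (Su(Hw)) after NURF301 knockdown, -96.6 to -95.8 after CP190 knockdown, and -99.5 to -98.7 and -99.1 to -98.7 after Su(Hw) knockdown. Against all-4 sites they ran from -52.5 to -45.6, -9.21 to -8.20, -46.5 to -42.8, -19.3 to -17.6 and -7.45 to -6.52; against pair sites from 4.59 to 21.1, 8.36 to 11.6, -19.8 to -5.52, -23.0 to -8.74 and -4.17 to -1.31. NURF301 ran from -16.3 to -9.88 after NURF301 and after Su(Hw) knockdown and from -16.0 to -9.57 after CP190 knockdown. Member sites with no CP190 in any NURF301 knockdown library were 43.7%, or 20.1% with sites in every mock list and 43.9% to 61.9% without 1 knockdown replicate. Those with Su(Hw) in every and CP190 in no library were 18.2%, or 8.003% with sites in every mock list and, at a -log10 q of at least 20, 10.7%, and 19.4% to 33.3% without 1 replicate. Neither share could fall when a replicate was left out, because the conditions are then easier to meet.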
